A study of Mus musculus with 2 samples.

Results

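The POU class III genes Pou3f1, Pou3f2, Pou3f3 and Pou3f4 encode transcription factors of the brain, and they were followed here through the listed C-to-U sites in their RNA. The sites were chosen by gene name, as every row of the site list named for 1 of the 4 genes, whatever its editing level. They numbered 24 of 17755 sites in all, and they lay in 2 of the 4 genes: 22 in Pou3f3, 2 in Pou3f2, 0 in Pou3f1 and 0 in Pou3f4. The whole list named 6929 genes.

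The nuclei came from the cortex of APOBEC1-YTH mice, stained for NeuN, the neuronal protein made from Rbfox3, and sorted by flow cytometry after fixation in 50% ethanol. All mice received tamoxifen at 20 mg/kg once every 24 hours over 5 days from an age of 10 weeks, and cortex was collected 7 days after dosing ended. The series held 2 libraries of this single group, which the authors deposited as 1 list with 1 editing level per site. The labels do not name the promoter that drives the transgene, nor say whether each library came from 1 animal. A label field gives the molecule as polyA RNA, while the kit in the protocol is one for stranded total RNA, so the RNA fraction behind the 3′ positions below is uncertain. No library without the editor was analysed here, so no background level could be set beside these sites.

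N6-methyladenosine (m6A) is a methyl mark on adenosines of RNA. APOBEC1-YTH joins a cytidine deaminase to a domain that binds m6A, and cytidines near a bound mark become uridines that are read as T. The editing level of a site is the share of reads with the conversion, given here in percent. POU class III factors bind DNA through a pair of linked domains, the POU-specific domain and the POU homeodomain, and recognise octamer sequences. Pou3f2 (Brn2) and Pou3f3 (Brn1) act together in the making and migration of upper-layer cortical neurons. Pou3f1 (Oct6, also SCIP) is best known from myelinating Schwann cells, and Pou3f4 (Brn4) from the inner ear, where its loss in humans causes deafness. The coding regions of such genes lie in a single exon, so their primary transcripts have few or no introns.

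Annotated spans are those of RefSeq on GRCm38.p6, the assembly that mm10 names. Pou3f3 spans 4443 bases on the plus strand of chromosome 1, from 42695768 to 42700210. Pou3f2 spans 6272 bases on the minus strand of chromosome 4, from 22482095 to 22488366. Pou3f1 spans 3010 bases of chromosome 4, from 124657646 to 124660655, and Pou3f4 spans 4730 bases of chromosome X, from 110814379 to 110819108. All 4 are annotated as protein-coding. The gene table gives no exons or untranslated regions, so positions are given as distances to the ends of the span.

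The 250 bases before the annotated start were on hand for 3 of the 4 genes, Pou3f2, Pou3f3 and Pou3f4. They are shown because each contained at least 2 matches to CCAAT on either strand, the letters of a common promoter element. The selection by name did not use these matches, and binding at them was not tested. Pou3f3 and Pou3f4 had 3 each and Pou3f2 had 2, where 10.1% of all 32851 promoters of the table had at least 2 in the same window and 2.79% had at least 3. Those shares are over promoters of any base composition. The upstream bases were 60.8% G and C in Pou3f3, 66.8% in Pou3f2 and 58% in Pou3f4. Each stretch below runs 5′ to 3′ on the gene's strand from 10 bases before the first match to 10 bases after the last, with the matches in capitals (ATTGG where the match is on the opposite strand). The Pou3f3 stretch is chr1:42695598-42695698 on the plus strand, the Pou3f2 stretch chr4:22488518-22488605 on the minus strand and the Pou3f4 stretch chrX:110814190-110814358 on the plus strand.
Pou3f3: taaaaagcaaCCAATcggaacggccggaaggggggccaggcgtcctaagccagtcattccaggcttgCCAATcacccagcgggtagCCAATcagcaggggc
Pou3f2: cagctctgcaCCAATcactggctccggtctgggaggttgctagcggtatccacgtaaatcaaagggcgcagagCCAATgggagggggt
Pou3f4: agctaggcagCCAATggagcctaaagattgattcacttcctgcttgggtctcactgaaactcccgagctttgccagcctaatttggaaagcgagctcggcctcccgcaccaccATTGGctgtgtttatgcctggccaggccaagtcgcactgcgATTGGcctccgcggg

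The matches began 160, 103 and 84 bases before the start of Pou3f3, 229 and 166 bases before that of Pou3f2, and 179, 76 and 35 bases before that of Pou3f4. Among the other genes with a POU name and a promoter in the table, 1 of 9 had 2 or more matches. That was Pou2af1, a coactivator gene that is not itself a POU factor gene. The octamer ATGCAAAT on either strand was found in 0 of the 3 windows, and in 1.6% of all promoters. The windows also hold the first 50 transcribed bases, which contained 11 cytidines in Pou3f3, 11 in Pou3f2 and 16 in Pou3f4, and 0 of these were listed as edited. None of the 24 sites fell in a promoter window, so the windows bear on where sites were not listed and on nothing else about the editing.

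**Figure D1:**
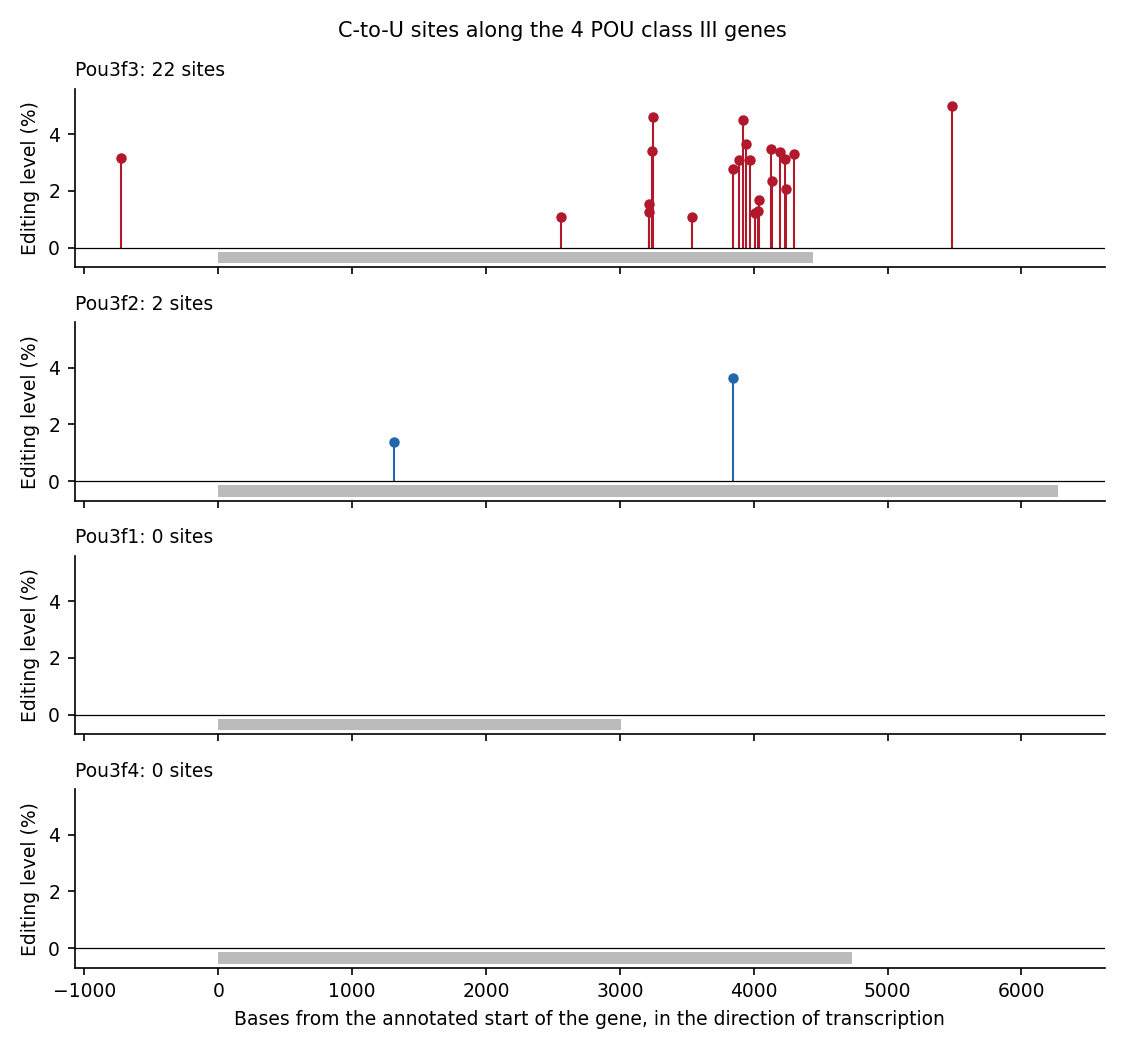
Each stem is 1 listed site, placed by its distance in bases from the annotated start (x axis) with its editing level in percent as height (y axis); the grey bar is the annotated span. Of the 22 Pou3f3 sites, 20 lie inside the span and all of these past its midpoint, Pou3f2 has 2 sites far apart, and Pou3f1 and Pou3f4 have 0.

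Pou3f3 carried almost all of the group's sites. Its 22 sites placed it behind 17 of the 6929 genes with a site, and 2 other genes had the same number. The median gene of the list had 2 sites. With 2 of 4 POU class III genes listed, the share of members with a site can be set beside 28.3% of all protein-coding genes of the RefSeq table, but 4 genes are too few to read a difference from. No read depth is given, so a gene with 0 listed sites cannot be told apart from a gene with too few reads.

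The members also differed per length. Inside its span Pou3f3 had 4.50 sites per kb, against 0.319 in Pou3f2 and 0 in the other 2 members. Among the 1154 genes of the list with a span of at most 10 kb, the median was 0.250 sites per kb and 18 genes were above Pou3f3. Of the 1017 protein-coding genes among them, 2 had more sites per kb than Pou3f3: Fjx1 (4.94), the mouse counterpart of the Drosophila gene four-jointed, and Cldn5 (4.94), which encodes the tight junction protein claudin-5 of blood vessel walls. Most of these short genes had few sites, with 746 of 1154 (64.6%) holding a single one and 7 holding 10 or more. Pou3f3 and Chst2, a sulfotransferase gene, were the pair with 20 or more. Of the 26 genes of the whole list with at least 20 sites, Pou3f3 had the shortest span, where the median of those genes was 80004 bases.

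**Figure D2:**
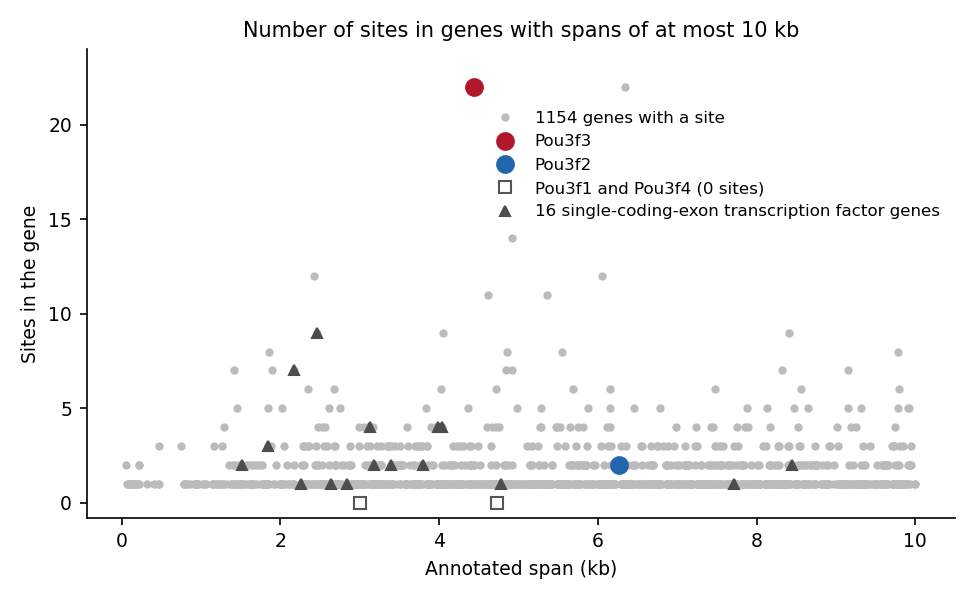
Number of listed sites (y axis) against annotated span in kb (x axis) for the 1154 genes with a site and a span of at most 10 kb, each gene 1 point. Pou3f3 stands at 22 sites and 4443 bases and Pou3f2 at 2 sites and 6272 bases. Pou3f1 and Pou3f4, with 0 sites, are drawn as open squares. Triangles are 16 other transcription factor genes listed as having a single coding exon.

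The sites of Pou3f3 inside the span began far from the gene's start. The first 2556 bases of the span, 57.5% of its length, held 0 listed sites. All 20 sites inside the span lay past its midpoint, against 74.1% of all 16879 listed sites that fell in a matched span and 64.3% of those in spans of at most 10 kb. In the last 1000 bases lay 15 of the 20, against 36.4% of the sites of all spans of at most 10 kb. Counted in steps of 500 bases from the start, there was 1 site from base 2501 to 3000, 4 from 3001 to 3500, 6 from 3501 to 4000 and 9 from 4001 to the end at 4443.

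By their spacing the sites fell into separate groups. A lone site at 42698324, 2557 bases from the start, had a level of 1.08%. Next came 4 sites within 32 bases, at 42698982 (1.55%), 42698983 (1.26%), 42699009 (3.42%) and 42699013 (4.62%). The first pair of these were neighbouring bases and both lay under 2%, and the second pair lay above 3%. A lone site at 42699306 had 1.08%, level with the lowest of the gene.

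The group nearest the end was the densest. Between 42699610 and 42700065, a stretch of 456 bases or 10.3% of the span, lay 14 sites, 14 of the 22 that the gene had. Their levels were 2.78% at 42699610, 3.08% at 42699656, 4.50% at 42699688, 3.65% at 42699713 and 3.09% at 42699741. A dip followed, with 1.23% at 42699777, 1.31% at 42699801 and 1.68% at 42699806. Then came 3.47% at 42699894 and 2.34% at 42699903. The last sites were at 3.38% (42699967), 3.15% (42700003), 2.08% (42700011) and 3.31% (42700065). The 3 sites of the dip were the only ones of the 14 under 2%. Within this stretch the median gap between neighbours was 32 bases, with a range of 5 to 88 bases.

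**Figure D3:**
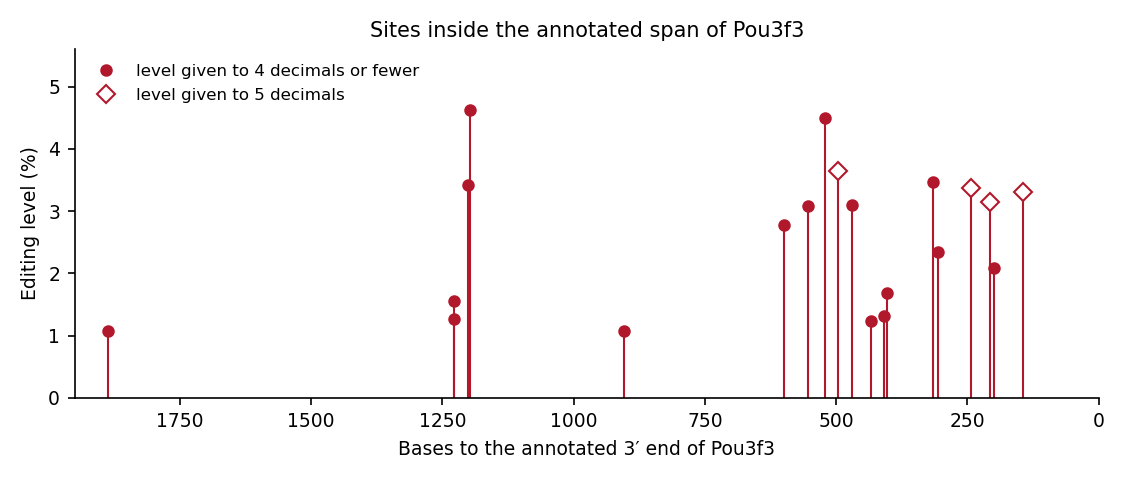
Editing level in percent (y axis) of the 20 sites inside the span of Pou3f3 against the bases left to its annotated 3′ end (x axis, running in the direction of transcription). The 14 sites of the dense stretch lie between 600 and 145 bases from the end; open diamonds are the 4 values that the list gives to 5 decimals.

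Such a density was rare in the list. For each gene the largest number of sites in any 500 bases was counted, a measure chosen after the Pou3f3 positions had been seen. The median of all 6929 genes was 1 and Pou3f3 had 14, with 3 genes above it, each with a longer span. None of the 1154 genes with spans of at most 10 kb had more in 500 bases. Of the 24 POU class III sites 18 (75%) had another site of the same gene within 100 bases, all of them in Pou3f3, against 22.8% of all sites in the list. The share over all sites includes genes with a single site, which cannot have such a neighbour. In Cldn5 and Fjx1, the short protein-coding genes with more sites per kb, most sites also had a neighbour within 100 bases. Of the 21 gaps between neighbouring Pou3f3 sites, 5 were of 10 bases or fewer and 16 of 100 bases or fewer, and the widest was 3280 bases.

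Neighbouring sites did not always share a level. In the 5 pairs of Pou3f3 sites no more than 10 bases apart, the levels differed by 0.29 points (1 base apart), 0.37 points (5 bases), 1.07 points (8 bases), 1.13 points (9 bases) and 1.20 points (4 bases). The 4-base pair held the gene's second highest level, 4.62%. Without coverage no counting error can be put on these differences.

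The dense stretch stopped before the end of the gene. Its last site lay 145 bases before the annotated end. The final 125 bases of the span, the part of the gene's end with sequence on hand, were 72% A and T. They held 6 cytidines on the plus strand, 1 of them after an A, and 0 listed sites. The sequence of the dense stretch was not on hand, so these counts have nothing to be compared with. The polyadenylation signal AATAAA occurred once in those bases, starting 21 bases before the end.

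A pair of sites carried the name Pou3f3 but lay outside its RefSeq span. That is 2 of the 24 POU class III sites, against 1.45% of all matched sites in the list. The upstream site, at 42695044 with 3.17%, was 724 bases before the start of Pou3f3. It was also 219 bases from the span of Pantr1, a noncoding RNA gene whose listed site is on the minus strand and whose span reaches to 943 bases from that of Pou3f3, so the site lay between both spans. The downstream site, at 42701250 with 5%, was 1040 bases past the end of the span and had the highest level of all 24. It lay within the span of the noncoding RNA gene 2900092D14Rik (42700336 to 42703176). Another noncoding RNA gene, Gm46091 (42684538 to 42744791), covers the whole of Pou3f3 and all 22 of its sites. RefSeq places both on the plus strand, as Pou3f3 is, so strand cannot tell RNA of these genes from that of Pou3f3, and 0 sites of the list carry their names. Within 200 kb on either side of Pou3f3, the list held 1 site of another gene, in Pantr1 at 42666861 on the minus strand, with 2.08%. Pantr2, the noncoding RNA gene downstream, had 0 sites.

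The 2 sites of Pou3f2 stood apart from each other, and both levels lay within the Pou3f3 range. At 22487054, 1313 bases from the start and before the midpoint of the span, the level was 1.39%. At 22484525, 3842 bases from the start and 2430 bases before the end, it was 3.64%. The sites were 2529 bases apart, and neither had another within 100 bases. Sites of other genes within 200 kb of Pou3f2 numbered 0. Around Pou3f1, which had no site itself, the list held 2 sites within 200 kb, 1 each in Mtf1 and Maneal, both at 8.70%. Around Pou3f4 it held 0.

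Levels in the POU class III genes were low beside those of all sites and fell in a narrow range. The 22 levels of Pou3f3 ran from 1.08% to 5% with a median of 3.09% (quartiles 1.58% and 3.41%), and those of Pou3f2 were 1.39% and 3.64%. All 17755 sites had a median of 3.64% (quartiles 2.01% and 6.90%) and a highest value of 94.9%. Of the 24 sites 1 reached 5%, against 37.2% of all sites, and 0 reached 10%, against 14.9% of all sites. The site at 5% was the downstream site outside the Pou3f3 span, and the highest level inside that span was 4.62%. At the low end the share was close to that of the list: 33.3% of the 24 lay under 2%, against 24.6% of all. The middle range from 2% to under 5% held 62.5% of the 24, against 38.2% of all.

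Sites of short genes had a higher median level than all sites, and sites of genes rich in sites a lower one. The 2009 sites in spans of at most 10 kb, those of Pou3f2 and Pou3f3 included, had a median of 4.17%, with 20.0% at 10% or more. The 711 sites of the 26 genes with at least 20 sites, Pou3f3 among them, had a median of 2.25%, below that of Pou3f3. Of these sites 15.3% were at 5% or more and 3.80% at 10% or more. Among those 26 genes, 11 had a lower mean level than Pou3f3 (2.74%), and 2 had a lower highest level. A low level needs many reads to be seen, and how many covered these genes is not given. The levels are those of listed sites, with no counting error and no spread between the 2 libraries.

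**Figure D4:**
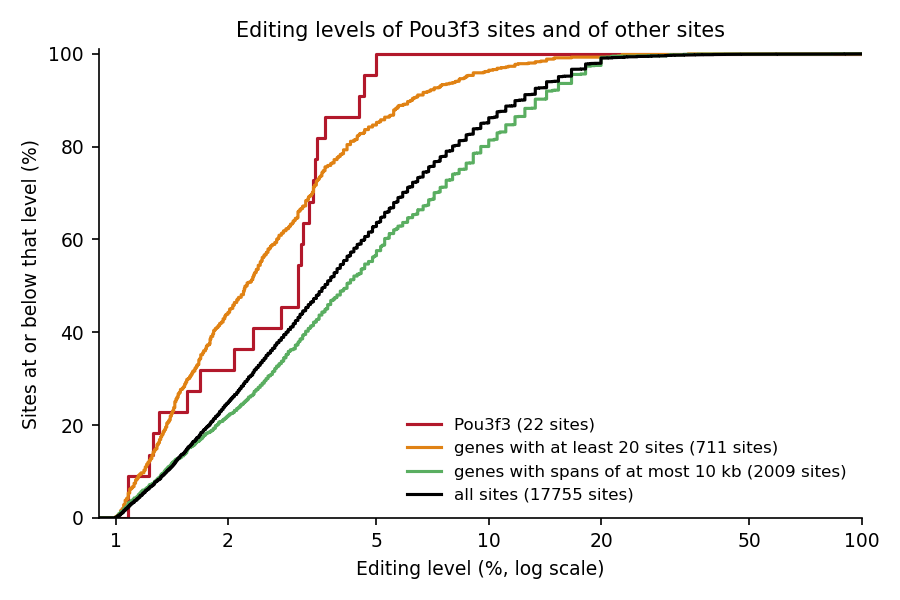
Share of sites at or below each editing level (y axis, percent) against editing level (x axis, percent, log scale) for Pou3f3, for the 26 genes with at least 20 sites, for spans of at most 10 kb and for all sites. The Pou3f3 curve climbs steeply between 3% and 4% and is complete at 5%, where 37.2% of all sites are at or above that level.

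Pou3f3 sites averaged 2.74% and Pou3f2 sites 2.52%, a difference of 0.22 points. With 2 sites in Pou3f2, and with sites of 1 gene sharing their transcripts, the difference is a description. It was -0.24 points over sites of at least 2%, 0.57 points between medians and 1.24 points without the highest site of each gene, so neither its sign nor its size is settled.

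Other genes of the POU family had fewer sites. Of 12 further genes with a POU name, the coactivator gene Pou2af1 counted among them, 3 had a site. These were Pou2f1, Pou5f2 and Pou6f1, a share close to the 28.3% of all protein-coding genes. Pou2f1 (Oct1), a broadly expressed octamer-binding factor, had 7 sites at 1.29% to 4.76% over a span of 137600 bases on chromosome 1, which is 0.0509 per kb. They lay 5013 to 41538 bases from its 3′ end, and 0 of the 7 had another within 100 bases. Pou5f2 had 1 site at 2.82% and Pou6f1 1 at 3.57%. The class II, IV, V and VI members left, together with Pou1f1 of the pituitary and the coactivator gene Pou2af1, had 0 listed sites. Over the whole family 33 sites were listed and the highest level was 5%, with a median of 2.82% over the 9 sites of the other members.

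Transcription factor genes listed as having a single coding exon, like Pou3f3, varied widely. No exon annotation was on hand, so that trait was not checked for each gene. Of the 32 genes so listed 16 had a site, against 28.3% of all protein-coding genes, with 46 sites in all, and the median of those 16 was 2 sites. Sox2, a factor of neural stem cells and glia and a known partner of POU factors on DNA, had the most, with 9 sites in 2467 bases (3.65 per kb) at 1.02% to 6.90%. Olig1, of the oligodendrocyte lineage, had 7 sites at 1.15% to 9.09% (3.22 per kb). Sox1, of neural progenitors, and Olig2, of the oligodendrocyte lineage, had 4 each. The immediate early gene Junb had 3 sites with a mean of 8.36%. Sox11, of young neurons, had 2 with a mean of 16.7%, and Cebpb, a factor of inflammatory responses, had 2 with a mean of 8.66%. The neuronal basic helix-loop-helix genes Neurod1, Neurod2, Neurod6 and Bhlhe22, picked out after their values were seen, had 0. Pou3f3 had more sites, and more per kb, than any of the 32, and its largest count in 500 bases was 14, against 6 in Sox2.

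Genes that mark cortical layers or act with POU factors had their sites spread more thinly over their spans. Of 22 such genes 16 had a site, against 28.3% of all protein-coding genes, with a median of 3.5 sites each. The 6 without a site were Bcl11a, Bcl11b, Tbr1, Foxp2, Dll1 and Hes5. Notch1, the receptor whose ligand gene Dll1 is a known target of Pou3f2, had 14 sites (mean 1.83%), the nuclear factor I gene Nfix 11 (1.82%) and the homeobox gene Lhx2 9 (4.90%). Nfib, Nfia and the layer gene Rorb had 5 each, at means of 5.40%, 4.76% and 4.57%. Of 2 more, picked out after their values were seen, Cux2, a marker of the upper layers where Pou3f2 and Pou3f3 are known to act, had 1 site (5.13%). The other, Nes, with a known POU-bound enhancer, had 2 sites, at 2.63% and 3.17%. The most sites that any of the 22 had per kb of span was 0.305, and their spans, up to 953863 bases, are counted whole.

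The genes nearest to Pou3f3 in sites per kb and mean level, by Euclidean distance of log2 values over the genes with spans of at most 10 kb, were Cldn5, Sox2, Rnu3b2, annotated as a small nuclear RNA gene, and Fjx1. Cldn5 had 7 sites in 1416 bases at 1.35% to 4.96%, 6 of them within 100 bases of another. Fjx1 had 12 sites in 2427 bases at 1.07% to 4.55%, all past the midpoint of its span. Rnu3b2 came close through a single site of 3.77% in 215 bases, where a rate per kb says little, and its reads can be shared with near-identical copies of the gene. The likeness is over 1 list of sites and carries no more than these 2 measures.

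The label of the nuclei as neuronal was set against marker genes of the list. Over all protein-coding genes 28.3% had a site. Of 11 neuronal markers 5 had a site (15 sites), namely Snap25, Syt1, Map2, Slc17a7 and Camk2a, and Rbfox3, Tubb3, Gad1, Gad2, Slc17a6 and Slc32a1 had 0. Of 7 astrocyte markers 5 had a site (140 sites), with Gfap and Aldoc at 0. All 8 markers of the oligodendrocyte lineage had a site (38 sites), as did 3 of 4 microglial markers (14 sites), with P2ry12 at 0, and all 5 vascular markers (50 sites). Markers of neurons and of other cell types were thus both among the listed genes. In bulk nuclei the Pou3f3 sites cannot be assigned to 1 cell type, and the part of other cells in them was not tested.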

How the data were processed

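Both libraries of the single group enter 1 deposited table of single-base sites with gene name, strand and editing fraction. Per the series description, the authors found sites with the Bullseye pipeline. The submitters' processing notes name STAR 2.7.5 for alignment and mm10 as genome build. How Bullseye was set, which control it used, what coverage it asked for and how the authors merged the libraries is not stated. The lowest deposited fraction corresponds to 1%, and depth per site and per library is unknown, so no interval, replicate error or test could be given.

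Fractions were multiplied into percent. Gene names were matched to RefSeq (GRCm38.p6) by symbol (6439 of 6929) or by a synonym of 1 gene (18). Positions are 1-based. The 255 sites of the list inside promoter windows were all a C on the transcript strand, and 42 of the 254 with a readable base before them (16.5%) followed an A. Sites per kb use sites inside the span. Python 3.11.15, pandas 2.3.3 and numpy 2.4.6 were used; the site functions were tested on simulated data.

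Named genes were the 4 members, other POU genes with a site, neighbours of Pou3f3, the leading members of 2 lists (single-coding-exon transcription factors, up to 8; layer and partner genes, up to 6) and the 4 genes nearest to Pou3f3; genes outside this rule are said to be so or are named as the few in a count. Members and lists were chosen with earlier results of these data known. Some genes of these lists are counted but not reported by name here.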

Additional observations from a re-analysis of the deposited data

How the results depend on the processing

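Of 19 recomputed values, 12 stayed within the spread of levels across sites, the exact 95% interval of a share or at most 1.5 times a count, and 7 moved further. The mean difference between Pou3f3 and Pou3f2 is among the 12 only because the spread across sites is wide: it was 0.22 points, -0.24 points at a minimum of 2%, 0.57 points between medians and 1.24 points without each gene's highest site. The number of POU class III sites was 24, and 16 at a minimum level of 2%, which lies at the limit of 1.5 times, but 1 at 5%. At 5% the median level was 5% and Pou3f3 had 0 sites per kb inside its span, and at 2% it had 2.93. The median of the gene maxima was 4.32%, against 3.09% over sites. The share of sites past the midpoint of the span was 95.5%, 100% at a minimum of 2%, and 75% as the mean of the shares of Pou3f3 and Pou3f2. Counting sites outside the span too, an alternative chosen after seeing the data, gave 4.95 sites per kb. At 2% Pou3f3 had 15 sites, behind 14 genes; at 5% it had 1, behind 1356 genes. At 5% no site inside a span and no Pou3f2 site was left, so the 3′ share and the difference between both genes have no value there. No paired analysis was possible because the table holds 1 value per site for both libraries; for the same reason no library could be left out. Depth is unknown, so a missing site is not evidence of absent methylation.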

Other observations

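In the list 125 of 17755 editing values (0.704%), in 115 genes, carry 5 decimals, all ending in 5, while the others carry 4 or fewer. Pou3f3 had 4 of them, 18.2% of its 22 sites, and 1 other gene had as many. They were 3.645%, 3.375%, 3.145% and 3.305%, and all 4 lay in the stretch of 456 bases near the 3′ end of Pou3f3, among its 14 sites. Pou3f2 had 0. How values with 5 decimals arose is not given in the sources used here and was not tested.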
